A study of Mus musculus with 37 samples.

Results

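Red blood cell transcripts varied widely between hearts dissected from mouse embryos on day E10.5, and the hearts richest and poorest in them are compared here. The libraries were chosen by the share of all counts, out of 37 libraries ranked, that fell on 7 haemoglobin genes, Hba-a1, Hba-a2, Hba-x, Hbb-y, Hbb-bh1, Hbb-bt and Hbb-bs. The 12 libraries with the highest share are called blood-rich and the 12 with the lowest blood-poor, so that 24 of the 37 libraries are compared and 13 lie between. The globin share that chose the libraries is given as a description, with no test. In bulk tissue, fewer red cells and less RNA per red cell cannot be told apart.

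The RNA of whole hearts of 4 genotypes had been sequenced in bulk from paired ends. Nipbl is the loader of cohesin, the ring complex that folds chromosomes into loops. Isl1, a LIM homeobox factor, acts in progenitors of the heart. Fathers carried Stra8-iCre, a Cre recombinase active in the male germ line, with Nipbl Flox/+, and their sperm held either Nipbl Flox, which the submitters treat as wild-type, or Nipbl FIN, a null allele. Mothers were Isl1 Cre/+, in which the Cre gene replaces the function of 1 Isl1 allele, so that every Isl1 +/- embryo also carries a Cre gene. The offspring were Nipbl +/+; Isl1 +/+ (n = 10), Isl1 +/- (n = 9), Nipbl +/- (n = 9) and Nipbl +/-; Isl1 +/- (n = 9). The labels do not say whether a library is 1 heart or several, so the p-values measure the spread between these libraries. Each description label also holds a number after the letters IVF, here called the set (1, 2, 5, 6 or 7), whose meaning is not spelled out.

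Haemoglobin is a tetramer of alpha-like and beta-like globin chains, each holding a heme group. At this stage the circulating red cells are mostly primitive erythroid cells from the yolk sac, which still carry a nucleus and express the embryonic globins Hba-x (zeta), Hbb-y (epsilon-y) and Hbb-bh1. Red cell maturation is driven by the transcription factors Gata1, Tal1 and Klf1. It includes the synthesis of heme, the import of iron, and the assembly of a membrane skeleton of spectrin and ankyrin around the anion exchanger Slc4a1. A dissected heart holds such cells in its chambers and vessels.

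Of the 7 genes, 3 carried nearly all of the globin share. Over the 37 libraries, Hbb-y held 9036342 counts, Hbb-bh1 5860498 and Hba-x 5134830. The adult alpha genes Hba-a1 and Hba-a2 held 5 and 6 counts, and Hbb-bs and Hbb-bt held 0. In GENCODE M21 (GRCm38), the coding sequences of Hba-a1 and Hba-a2 differ at 1 of 429 bases, and those of Hbb-bs and Hbb-bt at 1 of 444. Reads shared by such near-identical copies may not have been counted, which was not tested, so the levels of the adult globins are uncertain and were not read from these counts. By contrast, Hbb-bh1 and Hbb-y were identical at 76.4% of 444 coding bases. Hbb-bh1 lies at chr7:103841638-103843162, Hbb-y at chr7:103851754-103853207, and Hba-x at chr11:32276600-32278116.

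The globin share ran from 0.0446% to 8.92% of all counts. It was 0.0446% to 0.517% (median 0.236%) in the blood-poor libraries and 1.57% to 8.92% (median 2.98%) in the blood-rich ones. The order has no natural break at the upper limit. The highest library left out there had 1.55%, against 1.57% for the lowest taken in, while at the lower limit 0.517% was taken in and 0.692% left out. The library labelled Nipbl +/+; Isl1 +/+ replicate 7 had the highest share, and the next highest held 4.63%. The lowest share, 0.0446%, was in the library labelled Nipbl +/- replicate 2.

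**Figure D1:**
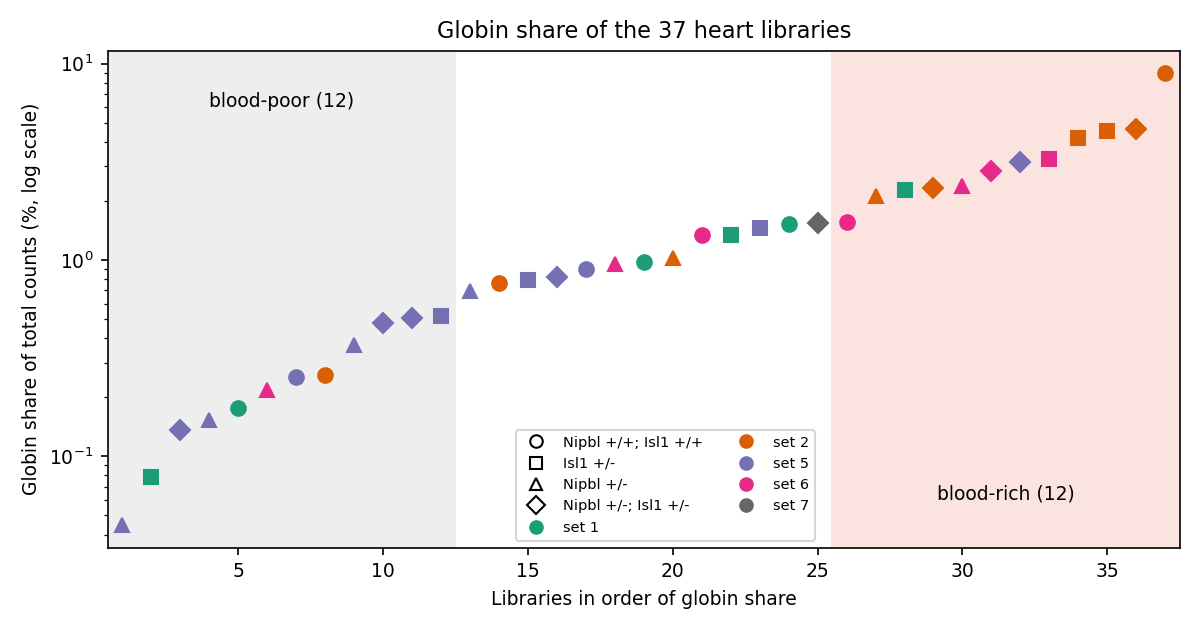
Globin share of total counts (percent, log scale) of each of the 37 libraries in rank order; the shape of a point gives the genotype and its colour the set. The shaded areas hold the 12 blood-poor libraries (up to 0.517%) and the 12 blood-rich ones (from 1.57%).

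Genotype was spread over both groups, and set was spread unevenly over them. The blood-rich group held 2 Nipbl +/+; Isl1 +/+, 4 Isl1 +/-, 2 Nipbl +/- and 4 Nipbl +/-; Isl1 +/- libraries, and the blood-poor group 3, 2, 4 and 3 (Fisher's exact test, two-sided p = 0.741, adjusted over 7 comparisons p = 0.865). Set 5 supplied 8 of the 12 blood-poor and 1 of the 12 blood-rich libraries, and set 2 supplied 6 blood-rich and 1 blood-poor (Fisher's exact test, two-sided p = 0.00769, adjusted p = 0.0538). Sets 1 and 6 gave 1 and 4 blood-rich libraries and 2 and 1 blood-poor ones. In each of the 4 sets, 1 of the globin groups therefore rests on a single library: Isl1 +/- replicate 1 in set 1, Nipbl +/+; Isl1 +/+ replicate 10 in set 2, Nipbl +/-; Isl1 +/- replicate 3 in set 5 and Nipbl +/- replicate 6 in set 6. Without these 4 the globin group cannot be told apart from the set.

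Depth without the globins was 33.9 ± 4.82 mega-counts (SD, n = 12) in blood-rich and 36.0 ± 5.29 mega-counts (SD, n = 12) in blood-poor libraries, with a two-sided permutation p of 0.324. The number of genes with a count above 0 was 17402 ± 239.6 and 17417 ± 251.6 (permutation p = 0.881). Xist, the transcript of the inactive X chromosome, exceeded 1 CPM (counts scaled to a library of 1 mega-count) in 6 of 12 blood-rich and 10 of 12 blood-poor libraries (Fisher's exact test, p = 0.193). Heart muscle genes were abundant throughout: a list of 20 sarcomere genes took 4.54% to 6.60% of the non-globin counts of every library.

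The library labelled Nipbl +/- replicate 2, in the blood-poor group, stood apart. On the first principal component of log2 CPM (26.5% of the variance) it lay at 109.99, and the next library at 20.0. Its share of non-globin counts on a list of 16 stress response genes was 0.802%, against 0.172% to 0.253% in the other 36 libraries. On a list of 25 low oxygen and glycolysis genes it was 4.25% against 1.46% to 2.72%. Platelet genes took 0.0670% of its counts, with at most 0.0273% elsewhere, and white cell genes 0.0133%, with at most 0.00864% elsewhere.

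With the globins left out before scaling, 268 of 14589 genes (1.84%) were higher and 3 (0.0206%) lower in blood-rich hearts, 1.86% in either direction, by the edgeR quasi-likelihood test with genotype and set as covariates and a Benjamini-Hochberg adjusted p under 0.05. Of the 268, 55 belong to the 5 erythroid lists described next and 213 to none of the blood lists. The differences varied in size: 85 of the 268 exceeded 2 on the log2 scale (4-fold), 81 lay between 1 and 2, and 102 were under 1. The direction was the same in all 4 sets for 267 of the 268, and for 3875 of all 14589 genes. The same libraries chose the 268, so this count is no separate support. In 153 genes (1.05% of those tested) the 12 blood-rich and 12 blood-poor libraries did not overlap, and in each of these the blood-rich libraries were the higher.

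Without the library labelled Nipbl +/- replicate 2, the same test called 482 genes higher (3.30%) and 60 lower (0.411%), and the 268 were all among the 482. Without Nipbl +/-; Isl1 +/- replicate 3, the lone blood-rich library of set 5, it called 161 higher, and without Nipbl +/+; Isl1 +/+ replicate 10 it called 170. A second grouping, here called the within-set grouping, ranked the libraries of each set with at least 6 by globin share. It compared the highest with the lowest of each set, in equal numbers, leaving out those in the middle. Across sets its groups overlap in globin share. The lowest library of its high group held 0.818%, in set 5, and the highest of its low group 1.03%, in set 2. The within-set grouping shares libraries with the main one and is no separate check. It called 151 of 14469 genes higher (1.04%) and 0 lower, and 150 of the 151 were among the 268.

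**Figure D2:**
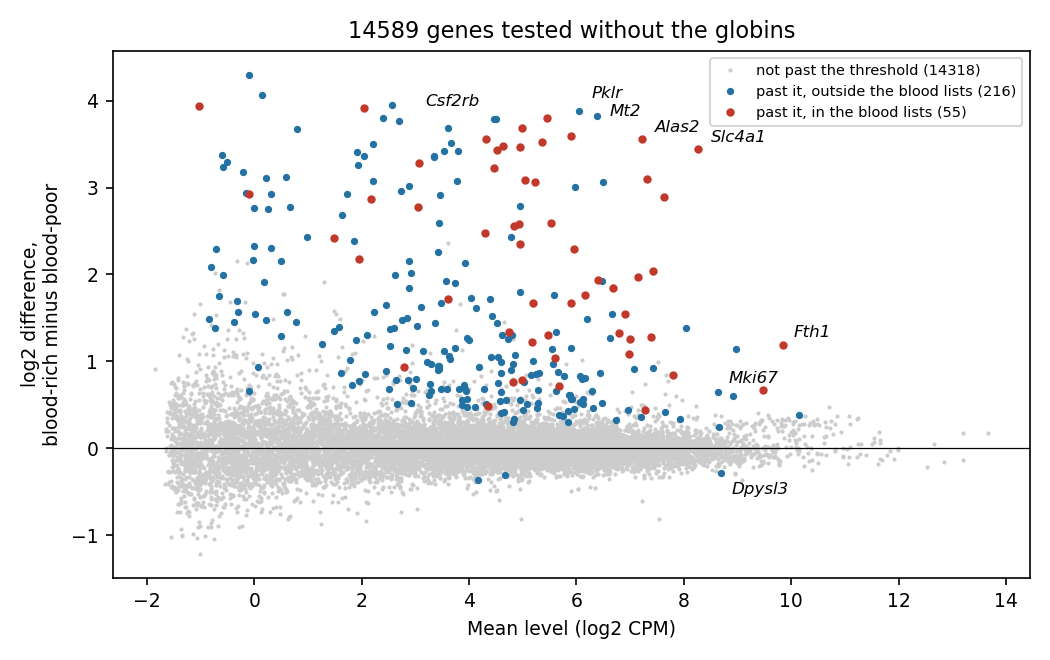
Each point is 1 of 14589 genes, by mean level (log2 CPM) and log2 difference between blood-rich and blood-poor libraries from edgeR. Genes past the adjusted threshold lie almost all above 0, with 55 in the blood lists (red) and 216 outside them (blue).

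Erythroid genes share their cells with the globins that ranked the libraries, so their differences are given as a description, with no test. Of 76 erythroid genes in 5 lists, 73 had enough counts, 68 had a positive difference and 55 were among the 268, where 1.84% of all genes were called higher. Without Nipbl +/- replicate 2 the number called was 63 of 73, and with the within-set grouping 49 of 72. Since the ranking used the same cells, nothing is read from these counts. Their median log2 difference was 1.67, against 0.015 over all genes tested.

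Heme synthesis genes were higher in blood-rich hearts in 12 of 12 cases, with a median log2 difference of 1.24. Alas2, the erythroid enzyme of the first and rate-limiting step, lay at 4.60 to 40.3 CPM (median 19.1) in the blood-poor libraries and at 129.6 to 682 CPM (median 243) in the blood-rich ones. The groups did not overlap, and the log2 difference was 3.57 ± 0.42 (SE). Within sets 1, 2, 5 and 6 the mean log2 CPM differed by 4.14, 3.75, 3.92 and 3.28. The later enzymes, which all cells use at some level, differed by less. Urod, which decarboxylates uroporphyrinogen, had medians of 150.2 CPM in blood-rich and 70.4 in blood-poor libraries. Alad, which forms porphobilinogen, had 156 and 75.7, with the lowest blood-rich library at 106 and the highest blood-poor one at 93.7. Cpox, which makes protoporphyrinogen, had 230.4 and 72.5 CPM, but its groups overlapped through the library labelled Nipbl +/- replicate 2, at 294 CPM. Tmem14c, a mitochondrial porphyrin transporter, had 272 and 153 CPM, with overlap. Fech, which inserts the iron, showed a log2 difference of 1.55 ± 0.20.

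Membrane genes of the red cell had the largest list median, 2.83, with 16 of 18 positive. Slc4a1 (band 3), the anion exchanger, lay at 5.28 to 95.4 CPM in blood-poor libraries and 309 to 1022 in blood-rich ones, with medians of 40.1 and 503. The groups were far from overlapping. Rhag, of the Rh complex, had medians of 34.6 and 2.33 CPM, and Kel, the Kell antigen, 39.9 and 2.58. The skeleton gene Epb42 (protein 4.2) showed a log2 difference of 3.43 ± 0.42. Sptb (beta-spectrin) and Ank1 (ankyrin), which were already at 59.4 and 31.8 CPM in the median blood-poor heart, showed 1.97 ± 0.25 and 1.94 ± 0.21.

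At the other end of this list stood genes with smaller or negative differences. Gypc, glycophorin C, had medians of 56.8 and 39.6 CPM and a log2 difference of 0.72 ± 0.11, yet its groups did not overlap (48.6 to 88.5 against 34.9 to 43.3). Epb41, protein 4.1, ranged from 137 to 231 CPM in blood-rich and from 96.7 to 282 in blood-poor libraries, where the highest was again Nipbl +/- replicate 2. Tmod1, a tropomodulin that caps actin filaments in red cells and in heart muscle, lay at 334 to 403 and 364 to 461 CPM, with a log2 difference of -0.053 ± 0.061. Aqp1, a water channel also made by endothelium, had -0.32 ± 0.20.

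The erythroid transcription factors were split, with 10 of 12 positive and log2 differences from -0.13 to 3.22. Klf1, the activator of beta-globin genes, lay at 33.8 to 128 CPM (median 51.0) in blood-rich and 1.62 to 11.9 (median 6.23) in blood-poor libraries. Gata1 had medians of 36.1 and 4.56 CPM, Gfi1b, a repressor it works with, 12.9 and 2.19, and Nfe2, the p45 subunit of NF-E2, 27.3 and 6.40. Tal1, which also acts in endothelium, had 85.2 and 26.6 CPM, with no overlap (55.1 to 150.1 against 20.2 to 34.3). Factors that act beside these had smaller values. Lyl1, a relative of Tal1, had a log2 difference of 0.79 ± 0.18, and Zfpm1 (Friend of Gata), a partner of Gata1, 0.45 ± 0.099. Lmo2 and Ldb1, which join Tal1 in a complex, had 0.38 ± 0.11 and 0.18 ± 0.086. The last of these lay at 149 to 197 and 126 to 182 CPM.

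Iron genes showed the same spread. Slc25a37 (mitoferrin), which carries iron into mitochondria, had medians of 335 and 43.7 CPM, and Tfr2, transferrin receptor 2, 6.70 and 1.13. Steap3, the endosomal ferrireductase, had 35.8 and 14.7. Fth1, the ferritin heavy chain, lay at 694 to 2488 CPM in blood-rich libraries and at 403 to 650.2 in blood-poor ones, with a log2 difference of 1.18 ± 0.18. Ftl1, the light chain, overlapped, at 1273 to 2729.8 and 1026 to 1774 CPM. Tfrc, the receptor that takes up transferrin, was at 113 to 261 CPM in blood-rich libraries and at 83.0 to 778 in blood-poor ones. The highest value was in the library labelled Nipbl +/- replicate 2. Slc11a2, the iron transporter DMT1, had medians of 30.5 and 23.7 CPM.

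Of the other erythroid genes, Car2 (carbonic anhydrase) had medians of 231 and 27.2 CPM, Epor (the erythropoietin receptor) 45.8 and 9.70, and Bpgm (which makes 2,3-bisphosphoglycerate) 153 and 46.3. Prdx2, a peroxiredoxin abundant in red cells, had 822 and 508. Bnip3l, which clears mitochondria, had 157 and 155, and its log2 difference was 0.46 ± 0.22. The ubiquitin enzyme Ube2o and the exportin Xpo7 had 0.11 ± 0.21 and 0.061 ± 0.14. Hbb-bh2 and Hbq1b, minor globin genes that the rule did not use, had medians of 0.720 and 6.29 CPM in blood-rich and 0.0385 and 0.426 in blood-poor libraries. Hbb-bh2 could take reads from its relatives, and its level is uncertain.

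Across all 37 libraries the level of a gene per doubling of the globin share describes how far it follows the globins. The slope of log2 level on log2 share, fitted with genotype and set, was 0.99 for Slc4a1, 0.97 for Alas2, 0.79 for Klf1 and 0.68 for Slc25a37. A slope of 1 means that the gene doubles when the globins double. It was 0.47 for Ank1, 0.39 for Tal1, 0.27 for Fth1, 0.15 for Gypc, and -0.015 for Tmod1. Troponin T (Tnnt2), a sarcomere gene, had 0.0056. Of 14858 genes fitted, 37 had a slope above 0.8. The points share depth and set, and no p is given for these named slopes.

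**Figure D3:**
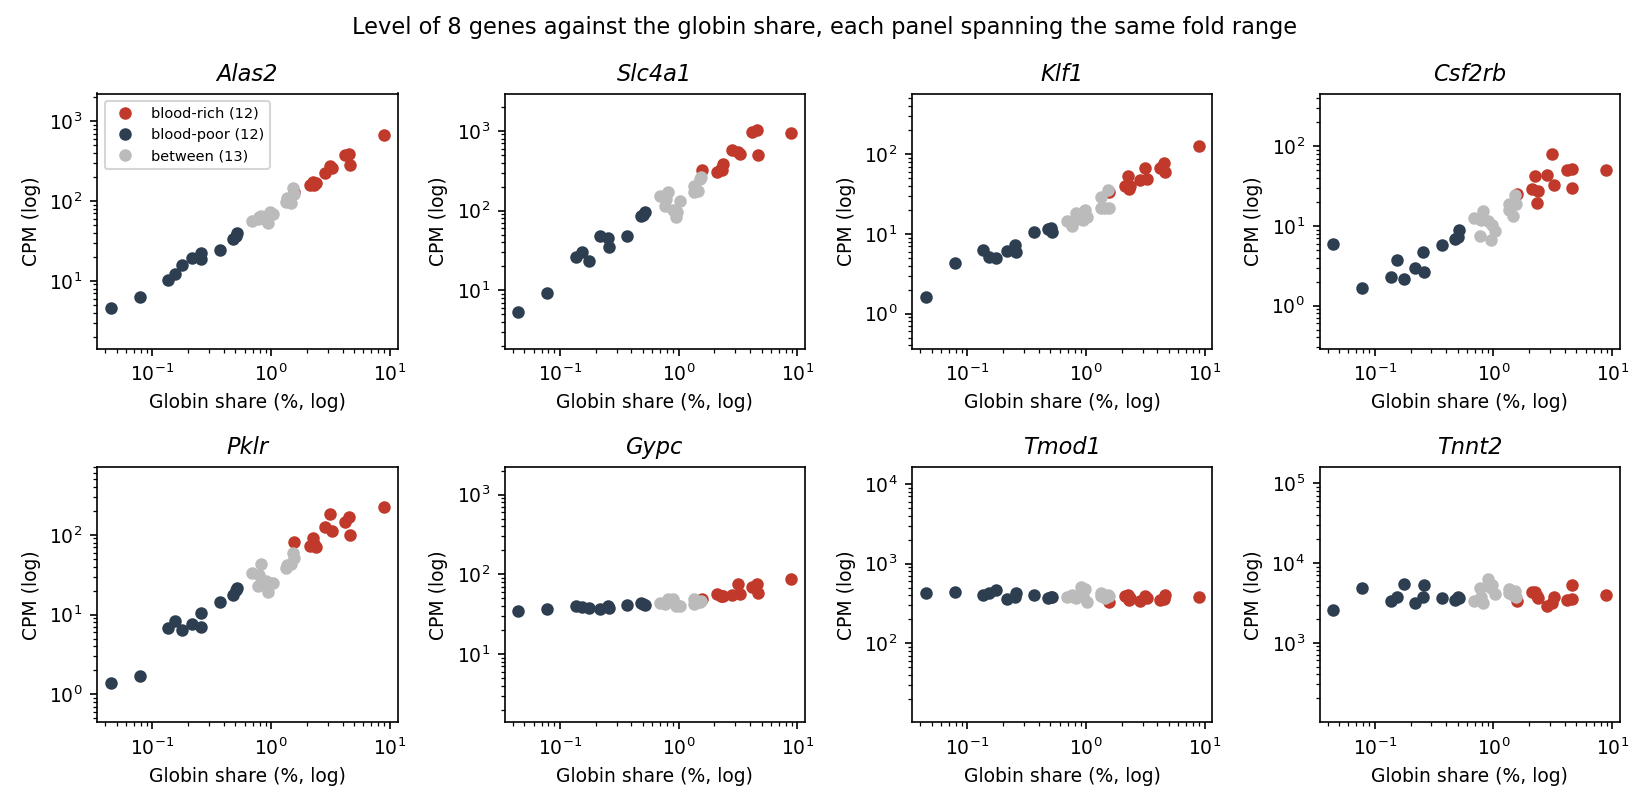
Level (CPM, log scale) of 8 genes against the globin share (percent, log scale), 1 point per library, in panels that span the same fold range. Alas2, Slc4a1, Klf1, Csf2rb and Pklr rise with the share, Gypc rises by less, and Tmod1 and Tnnt2 stay level.

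Promoters of 3 genes from these lists with large differences are shown, to give the letters that lie before genes of heme synthesis, of its regulators and of the membrane skeleton. Each runs from 250 bases before to 50 bases after the gene's start, 5′ to 3′ on the gene's strand, as RefSeq gives it for GRCm38.p6: Alas2 at chrX:150547167-150547466, plus strand; Klf1 at chr8:84901732-84902031, plus strand; Epb42 at chr2:121036828-121037127, minus strand. Capitals mark the letters AGATAA, a motif of GATA factors, and the letters CACCC, a motif of Krüppel-like factors, each searched on both strands and therefore also shown as the reverse complement.
Alas2: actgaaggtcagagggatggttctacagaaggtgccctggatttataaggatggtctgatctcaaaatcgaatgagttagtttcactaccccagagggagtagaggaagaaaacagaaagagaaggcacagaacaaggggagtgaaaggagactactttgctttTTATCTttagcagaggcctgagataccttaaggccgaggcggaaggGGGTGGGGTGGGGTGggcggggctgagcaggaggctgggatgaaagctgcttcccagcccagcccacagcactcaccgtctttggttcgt
Klf1: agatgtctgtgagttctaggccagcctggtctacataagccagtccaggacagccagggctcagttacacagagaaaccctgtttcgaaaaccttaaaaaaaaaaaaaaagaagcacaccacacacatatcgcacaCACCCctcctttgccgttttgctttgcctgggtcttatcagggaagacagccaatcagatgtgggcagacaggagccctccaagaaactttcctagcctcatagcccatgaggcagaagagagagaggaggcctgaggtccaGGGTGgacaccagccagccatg
Epb42: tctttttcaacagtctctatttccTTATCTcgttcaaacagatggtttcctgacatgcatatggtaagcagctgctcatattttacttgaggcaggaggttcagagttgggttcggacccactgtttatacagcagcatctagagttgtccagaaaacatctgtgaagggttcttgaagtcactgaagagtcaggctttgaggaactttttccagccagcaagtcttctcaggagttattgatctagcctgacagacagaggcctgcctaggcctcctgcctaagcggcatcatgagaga
The Alas2 promoter held 1 AGATAA and 3 CACCC matches, Klf1 held 0 and 2, and Epb42 held 1 and 0. That of Tmod1, whose level differed by -0.053 on the log2 scale, held 0 and 3, as many CACCC matches as Alas2. Among 27025 promoters of this length, 12.7% held AGATAA and 59.8% held CACCC. A match describes letters and not a bound site. Of the 76 erythroid genes, 57 (75.0%) had a promoter in the table, short of the 80% needed, so no share over the lists is given.

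Outside the blood lists, 213 genes were higher in blood-rich hearts. None of them was used to rank the libraries, but those known in red cells share their cells with the globins that did, so their p-values are not independent of the ranking. The 10 with the smallest p-values at a mean log2 CPM of at least 1 all separated the groups without overlap. Csf2rb, the shared beta subunit of the receptors for interleukin 3, interleukin 5 and GM-CSF, lay at 1.65 to 8.96 CPM (median 4.22) in blood-poor and 19.3 to 79.4 (median 37.4) in blood-rich libraries. Its log2 difference was 3.80 ± 0.28 (SE), with an edgeR adjusted p of 1.8e-07, and within sets 1, 2, 5 and 6 it was 4.46, 3.73, 3.89 and 3.37. Its neighbour and close relative Csf2rb2, the subunit specific to interleukin 3, had medians of 6.53 and 1.18 CPM. The relatives can share reads, so how the counts divide between them is uncertain.

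Membrane channels and carriers were among the 10. Aqp3, an aquaglyceroporin, lay at 11.6 to 38.5 CPM in blood-rich and 0.530 to 4.24 in blood-poor libraries, a log2 difference of 3.69 ± 0.35 (edgeR adjusted p = 3.16e-06). Kcnn4, the calcium-activated potassium channel known in red cells as the Gardos channel, had medians of 21.6 and 2.08 CPM (log2 difference 3.42 ± 0.36). Slc22a4, a carrier of ergothioneine, had 5.70 and 0.522 (3.26 ± 0.35). The highest blood-poor library was below the lowest blood-rich one for each.

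The others differ in function. Ikzf1 (Ikaros), a blood cell transcription factor, had medians of 23.0 and 3.00 CPM (log2 difference 3.08 ± 0.30, edgeR adjusted p = 3.16e-06). Ell2, a transcription elongation factor, had 43.2 and 9.98 (2.43 ± 0.20, edgeR adjusted p = 1.03e-06). Plek2, a pleckstrin that binds actin and membrane lipids, had 10.3 and 1.59 (3.02 ± 0.27). Nxpe2 and Ccdc92b had 7.71 and 0.797, and 15.8 and 1.58. All 10 genes were also higher with the within-set grouping, by log2 differences of 2.10 to 3.42.

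Further genes are named after their values were seen. Pklr, the pyruvate kinase of red cells and liver, lay at 69.9 to 224 CPM in blood-rich and 1.40 to 21.3 in blood-poor libraries (log2 difference 3.89 ± 0.43). As a red cell gene it is described with no test. The metallothioneins Mt1 and Mt2, which bind zinc and copper, had medians of 142 and 143 CPM in blood-rich and 22.1 and 12.4 in blood-poor libraries, with overlap. Slc38a5, a glutamine transporter, had 16.1 and 2.01 CPM. Gpx1, a glutathione peroxidase, lay at 403 to 1511 and 195 to 345 CPM. Slc39a8, a zinc and manganese importer, had 146 and 47.8 CPM (log2 difference 1.54 ± 0.20). The long non-coding RNA Redrum had 10.8 and 0.988, and Reln, which encodes the secreted protein reelin, 17.0 and 4.50.

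Smaller differences without overlap were found for some other genes, also named after their values were seen. Their cells of origin were not tested, so their p-values may not be independent of the ranking. Myc, the growth regulator, lay at 21.8 to 41.8 CPM in blood-rich and 10.2 to 16.8 in blood-poor libraries (log2 difference 1.05 ± 0.12, edgeR adjusted p = 1.23e-05). Eif2ak1, the heme-regulated kinase of translation, had medians of 68.0 and 46.4 CPM (0.61 ± 0.12, edgeR adjusted p = 0.00581). E2f2, a cell cycle transcription factor, had 34.3 and 13.5, and Ucp2, a mitochondrial carrier, 166 and 82.8. With the within-set grouping, Myc and E2f2 passed the threshold (edgeR adjusted p = 0.00617 and 0.0181), and Eif2ak1 and Ucp2 did not (0.155 and 0.118). The within-set grouping shares libraries with the main comparison. When 1 library at a time was left out of the main comparison, Myc always passed. E2f2 lost the threshold in 1 of these fits, Eif2ak1 in 2 and Ucp2 in 3.

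The 3 genes lower in blood-rich hearts differed by little. Dpysl3, a cytoskeletal protein of growing neurons, lay at 306 to 468 CPM in blood-rich and 382 to 514 in blood-poor libraries (log2 difference -0.29 ± 0.073, edgeR adjusted p = 0.0438). Cc2d2a, of the ciliary transition zone, had medians of 16.2 and 20.1 CPM (-0.36 ± 0.083, edgeR adjusted p = 0.0200), and Atp6v0e2, a subunit of the vacuolar proton pump, 22.1 and 27.9 (-0.31 ± 0.077, edgeR adjusted p = 0.0374). The groups overlapped for each, and none passed with the within-set grouping (edgeR adjusted p = 0.659, 0.424 and 0.897). In the fit of all 37 libraries on the log2 globin share, 453 of 14858 genes (3.05%) had a positive and 305 (2.05%) a negative slope past the edgeR adjusted threshold.

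Lists for other cells and states held few or no called genes, depending on the fit. In 15 lists, all but that for replication and mitosis, with 224 genes tested, 0 passed the edgeR threshold, 13 had an unadjusted p under 0.05, and DESeq2 called 0. Of all 14589 genes, 1.86% were called and 1145 had an unadjusted p under 0.05. Without the library labelled Nipbl +/- replicate 2, where 3.30% of all genes were called higher and 0.411% lower, 7 genes of these lists passed, 6 of 224 (2.68%) higher and 1 (0.446%) lower. The stress list had 3 of them higher: Trib3, a pseudokinase of the stress response, at a log2 difference of 2.19 (edgeR adjusted p = 0.000143), Asns, asparagine synthetase, at 0.89 (edgeR adjusted p = 0.00173), and Atf4, a transcription factor of that response, at 0.56 (edgeR adjusted p = 0.000369). The low oxygen list had Adm, adrenomedullin, at 0.60 and Ndrg1 at 0.98 (edgeR adjusted p = 0.00403 and 0.0343), and the progenitor list Runx1, of definitive blood formation, at 0.99 (edgeR adjusted p = 0.0112). Irx4, a ventricular transcription factor, was lower, at -0.32 (edgeR adjusted p = 0.0456). With the within-set grouping, 0 of the 224 list genes passed in edgeR with that library or without it. Without the set term, edgeR called 2 of 224 (0.893%) lower, both of the sarcomere list, and 0 higher. Of all genes 0.185% were lower and 2.89% higher in that fit. In the fit of 37 libraries on the log2 globin share, 10 of 230 genes of these lists (4.35%) had a negative slope past the edgeR adjusted threshold and 0 a positive one, against 2.05% and 3.05% of all genes. The 10 were Actn2, Myh7 and Nebl of the sarcomere, Mef2c and Hey2 of the regulators, Vcan of the cushions, the immediate early genes Jun, Nr4a1 and Egr1, and the heat shock gene Hspa1a.

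Medians of the other blood cell lists depended on single libraries and on the model, and no direction is given for platelets or progenitors. Platelet and megakaryocyte genes had a median log2 difference of 0.31 (15 of 15 positive). It was -0.053 (5 of 15) without Nipbl +/- replicate 6, 0.54 without Nipbl +/+; Isl1 +/+ replicate 10, 0.015 (8 of 15) without the set term, and -0.053 (4 of 15) per doubling over all 37 libraries. Pf4, platelet factor 4, lay at 8.02 to 39.9 CPM in blood-rich and 4.39 to 84.9 in blood-poor libraries. White cell genes had a median of 0.33 (13 of 16 positive), 0.18 (12 of 17) without Nipbl +/- replicate 6 and -0.0020 (9 of 19) per doubling over all 37 libraries. Their summed share was 0.00452% to 0.00864% in blood-rich and 0.00344% to 0.0133% in blood-poor libraries. Blood stem and progenitor genes had -0.11 (3 of 8 positive), but 0.017 (4 of 8) without Nipbl +/-; Isl1 +/- replicate 3 and 0.0057 (5 of 8) without the set term. Kit, the stem cell factor receptor, had 0.25, Myb, a progenitor transcription factor, 0.48, and Runx1 1.07. The other 5 had negative values, from -0.34 for Mecom, a stem cell transcription factor, to -0.096 for Meis1, a homeobox factor, with Gata2, a GATA factor of progenitors, at -0.28, Cd34, a surface marker, at -0.20 and Hlf at -0.12. None of these 8 passed with all 24 libraries. Stress genes had a median of 0.16 (13 of 16 positive), 0.10 (11 of 16) without Nipbl +/- replicate 2 and 0.044 (10 of 16) without Nipbl +/- replicate 6. It was -0.083 (6 of 16) without the set term and -0.091 (5 of 16) per doubling over all 37 libraries. No direction is given for stress genes either.

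Medians of the heart cell lists lay close to the median of all genes, though some fits called members lower. Sarcomere genes had a median log2 difference of -0.13 (1 of 20 positive), cardiomyocyte regulators -0.12, endothelial and endocardial genes -0.12, cushion mesenchyme -0.19 and epicardium 0.21 (12 of 12 positive). Without the set term the medians were 0.020 (11 of 20 positive) for sarcomere genes, -0.15 for regulators, -0.0018 for endothelial genes, 0.0075 (8 of 15) for cushion genes and 0.090 (7 of 12) for epicardium. Sarcomere genes had 9 of 20 positive with the within-set grouping, and a median slope of 0.0095 (11 of 20) over all 37 libraries. In edgeR without the set term, 2 of 20 sarcomere genes (10%) were called lower, where 0.185% of all genes were. Negative slopes over 37 libraries were called for 3 of 20 sarcomere genes (15%) and 2 of 18 regulators (11.1%), against 2.05% of all genes. The cushion median was -0.085 without Nipbl +/-; Isl1 +/- replicate 3. That of epicardium was 0.0027 (7 of 12) without Isl1 +/- replicate 1 and 0.13 (11 of 12) without Isl1 +/- replicate 3. Tnnt2 lay at 2891 to 5373 CPM in blood-rich and 2565 to 5429 in blood-poor libraries. Kdr, the VEGF receptor of endothelium, had medians of 104 and 112 CPM. Nipbl and Isl1 themselves had log2 differences of 0.022 ± 0.16 and -0.37 ± 0.25 (edgeR adjusted p = 0.996 and 0.816). Mki67, a marker of dividing cells, was the 1 call of 24 replication and mitosis genes, where 1.84% of all genes were called higher. It lay at 355 to 666 CPM in blood-rich and 279 to 437 in blood-poor libraries (log2 difference 0.65 ± 0.15, edgeR adjusted p = 0.0169), but did not pass with the within-set grouping (adjusted p = 0.192). The number of these 24 genes called higher was 2 (8.33%) in DESeq2, 2 without Nipbl +/- replicate 2, 4 (16.7%) without the set term and 6 (25.0%) in the fit of 37 libraries on the share, where 2.17%, 3.30%, 2.89% and 3.05% of all genes were. It was 0 with the within-set grouping, without Nipbl +/-; Isl1 +/- replicate 3, without Nipbl +/+; Isl1 +/+ replicate 10, and without set 5.

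Low oxygen and glycolysis genes changed direction with the model. Their median log2 difference was 0.37 (24 of 25 positive) with the set term and -0.28 (0 of 25 positive) without it. Leaving out Nipbl +/- replicate 2 gave 0.29 (24 of 25), leaving out Nipbl +/- replicate 6 gave 0.21 (25 of 25), leaving out Nipbl +/-; Isl1 +/- replicate 3 gave 0.037 (13 of 25), and leaving out set 5 gave -0.12. The libraries Nipbl +/-; Isl1 +/- replicate 3 and Nipbl +/- replicate 2, both of set 5, had the largest shares of counts on the list, 2.72% and 4.25%. Vegfa, the endothelial growth factor, lay at 56.2 to 227 CPM in blood-rich and 72.1 to 1320.1 in blood-poor libraries. No direction can be given for this list.

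**Figure D4:**
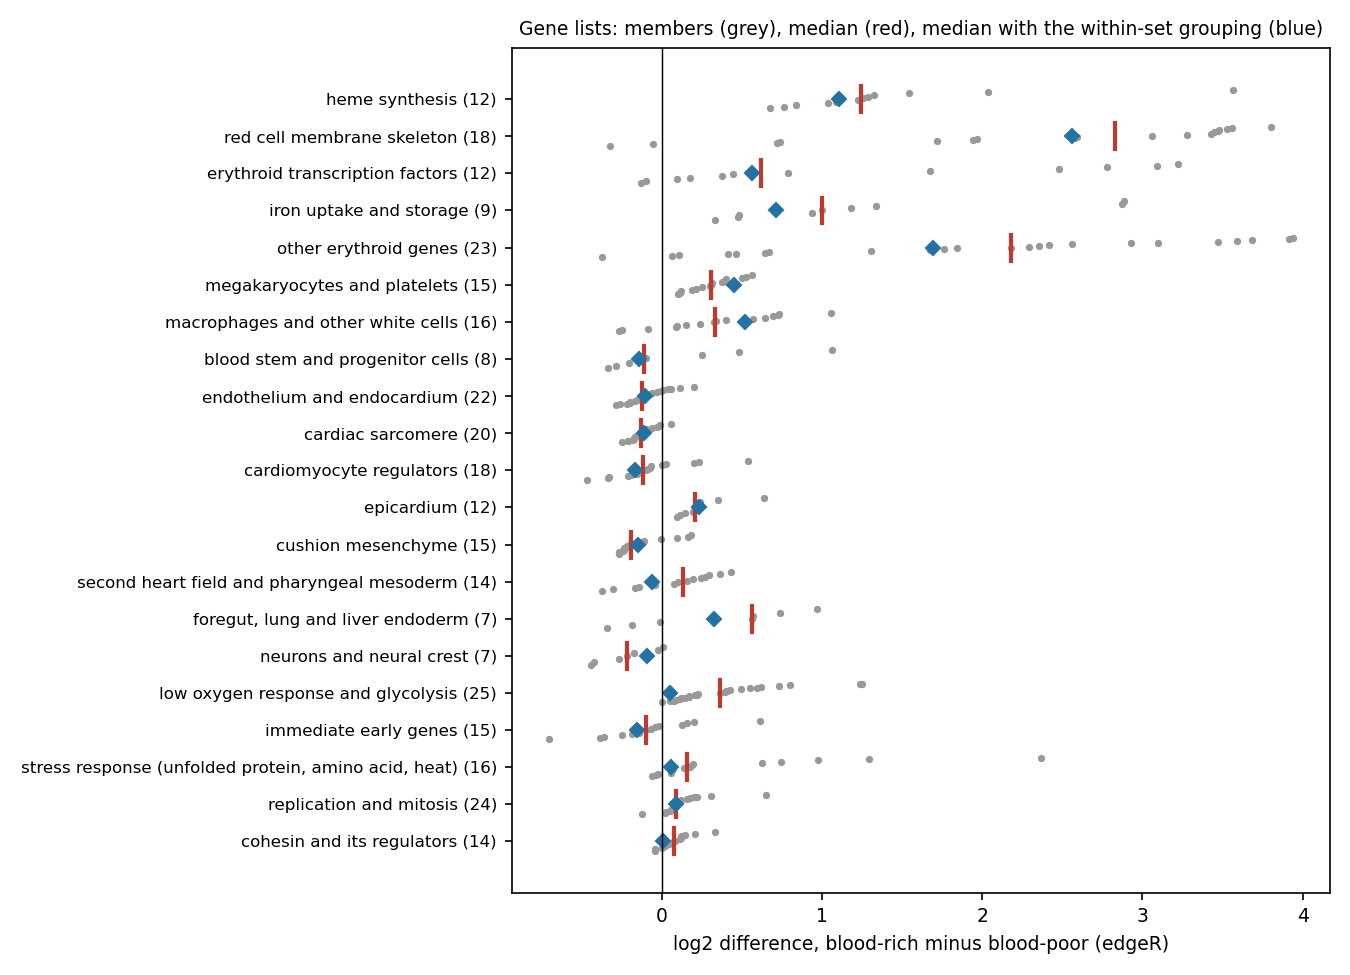
Log2 difference between blood-rich and blood-poor libraries for each gene (grey) of 21 lists, with the list's median (red) and its median with the within-set grouping (blue), and in brackets the number of genes tested. The 5 erythroid lists have medians of 0.62 to 2.83, and the other 16 have medians of -0.22 to 0.56.

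The 13 libraries between the groups, ranked by the same share but not compared above, were fitted on their own globin share, from 0.692% to 1.55%. Of 195 genes called outside the blood lists and measured there, 181 (92.8%) had a slope of the same sign as in the comparison, against 49.4% of 13137 genes not called. Of those called higher it was 180 of 192, and of those called lower 1 of 3. Without the set term the shares were 87.2% and 57.8%. The fit with the set term left out the only library of set 7 and used 12 libraries, and the fit without the set term used 13. Genotype was not a covariate in these fits. With the set term 0 of 13435 genes passed the adjusted threshold in edgeR and 155 had an unadjusted p under 0.05. Without it 7 of 13413 passed. The genes are not independent of each other, and those known in red cells share their cells with the globins here too. The 92.8% is therefore a description, with no p.

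Whether the difference between blood-rich and blood-poor hearts depended on Nipbl was tested with an interaction term. Of 14589 genes, 0 passed in edgeR (smallest adjusted p = 0.9998), 147 had an unadjusted p under 0.05, and DESeq2 also called 0, with 186. Without Nipbl +/- replicate 2 edgeR called 0 of 14614 (smallest adjusted p = 0.9999), with 415 genes under 0.05. Without the set term it called 0, with 318 (smallest adjusted p = 0.850). The blood-rich group held 6 and the blood-poor group 7 Nipbl +/- libraries. Each of these counts under 0.05 is below the mean that chance alone would give. The power of the interaction test was not measured, so 0 calls do not show that the difference is independent of Nipbl.

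The proportions of the embryonic globins lay close together in both globin groups and lay lower in Nipbl +/- libraries for Hbb-bh1. These counts are the ones that ranked the libraries, and the comparison was chosen after the values were seen, so the values are a description with no test. Counts of Hbb-bh1 per count of Hbb-y were 0.649 ± 0.109 (SD, n = 12) in blood-rich and 0.663 ± 0.0955 (SD, n = 12) in blood-poor libraries. Those of Hba-x per count of both beta-like globins were 0.352 ± 0.0508 (SD, n = 12) and 0.378 ± 0.0259 (SD, n = 12). The ratio of Hbb-bh1 to Hbb-y was 0.579 ± 0.0517 (SD, n = 18, range 0.489 to 0.658) in Nipbl +/- libraries of either Isl1 genotype. In Nipbl +/+ libraries it was 0.738 ± 0.0749 (SD, n = 19, range 0.605 to 0.847). The ranges overlapped between 0.605 and 0.658. The mean ratio was lower with Nipbl +/- in each of sets 2, 5 and 6, at 0.554 against 0.664, 0.611 against 0.734, and 0.548 against 0.719.

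In blood-rich libraries the ratio was 0.567 ± 0.0592 in 6 Nipbl +/- and 0.731 ± 0.0807 in 6 Nipbl +/+, and in blood-poor libraries 0.599 ± 0.0403 in 7 and 0.752 ± 0.0744 in 5. Without the library labelled Nipbl +/- replicate 2 the means were 0.576 and 0.738. Isl1 +/- and Isl1 +/+ libraries had 0.659 ± 0.0974 and 0.663 ± 0.110. The ratio of Hba-x to the sum of both beta-like globins was 0.372 ± 0.0505 in Nipbl +/- and 0.347 ± 0.0354 in Nipbl +/+. Its order differed between sets, with 0.383 against 0.338 in set 2, 0.395 against 0.360 in set 5 and 0.317 against 0.338 in set 6. Set 1, which holds no Nipbl +/- library, had the highest mean ratio of Hbb-bh1 to Hbb-y, 0.813 ± 0.0326 (SD, n = 6). The developmental age of each embryo within the stage is not given in the labels, and its part in this difference was not tested.

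**Figure D5:**
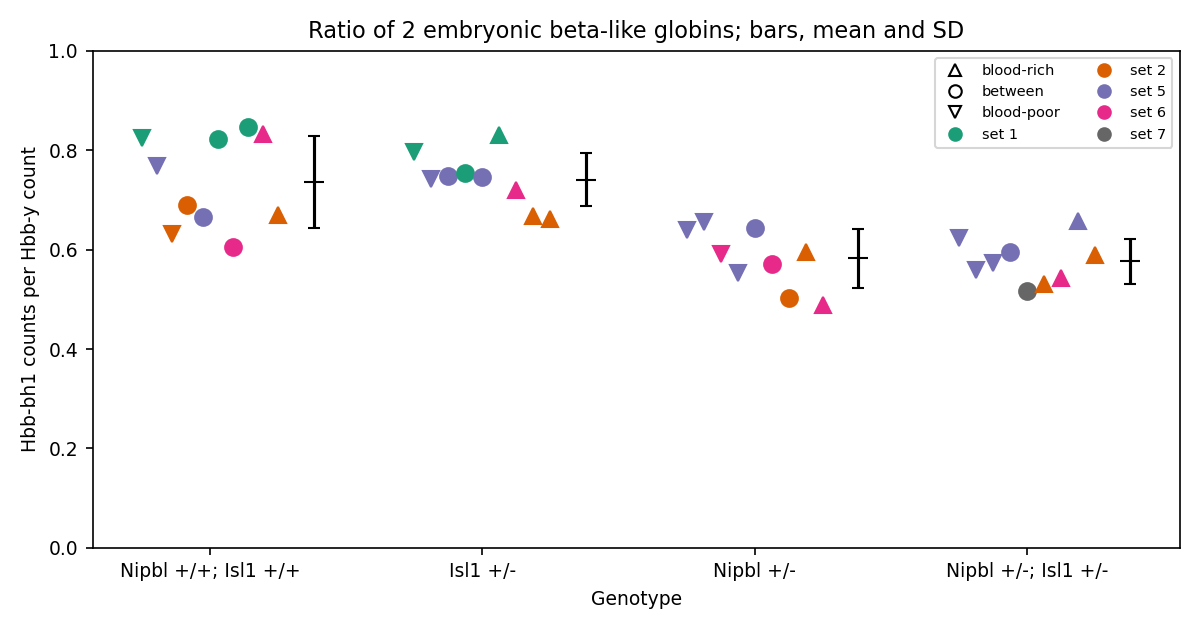
Counts of Hbb-bh1 per count of Hbb-y in each of the 37 libraries by genotype, with colour for the set, shape for the globin group, and bars for the mean and SD of each genotype. Libraries of both Nipbl +/- genotypes lie at 0.489 to 0.658 and those of both Nipbl +/+ genotypes at 0.605 to 0.847.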

How the data were processed

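Total RNA was extracted from E10.5 hearts with a Monarch kit and made into libraries with the NEBNext Ultra II RNA kit, per the labels' protocols. The authors deposited raw read counts per gene symbol (25239 rows, 4273 of them 0 in every library). The submitters' processing notes name STAR, featureCounts and GRCm38 (mm10). Versions, annotation and strand setting are not given in the sources used here, so overlapping, antisense and near-identical genes are uncertain. Total counts ranged from 23.4 to 51.0 mega-counts per library, and counting error is small for all but low genes.

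The 7 globins were removed before TMM scaling. Genes were kept by filterByExpr (minimum count 10, total 15) and tested with the edgeR 4.0.16 quasi-likelihood method (limma 3.58.1, R 4.3.3) on the 24 libraries, with genotype and set as factors, two-sided, adjusted by Benjamini-Hochberg over all genes at 0.05. SEs come from the F statistic, and CPM values are TMM-scaled. Log2 CPM used a prior count of 2. On simulated data for this comparison (14477 genes), 34.3%, 88.1% and 100% of genes changed by log2 0.5, 1 and 2 were recovered, and 8 of 156 calls were false. The globin groups, the gene lists and the tests were chosen with earlier results of these data known. Named genes outside the blood lists were up to 10 per direction with the smallest p, mean log2 CPM of at least 1, not sex-linked and the same direction in every set. Of the erythroid lists, up to 6 members each with the highest counts were named, and other members are named as examples. Some genes that these rules would name are not reported here. Alternatives were other scalings, filters, covariates, group sizes and groupings, DESeq2 1.42.0, and leaving out sets or libraries. Leaving out each library in turn for the list medians was added after seeing the data. Python 3.11.15 and matplotlib 3.10.9 were also used.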

Additional observations from a re-analysis of the deposited data

Results flagged for a closer look

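Total counts and 2 ratios of globin counts were examined in 7 groups of 6 to 10 libraries, the 4 genotypes and sets 1, 2 and 6. In these 21 combinations of a measure and a group, 3 had an extreme library far from the rest by Dixon's criterion. Chance alone would give about 1 in 20 combinations. The total count of Isl1 +/- replicate 6 was 51.0 mega-counts, against 33.6 to 39.0 mega-counts in its genotype, and that of Nipbl +/- replicate 6 was 46.1 mega-counts, against 31.6 to 36.7 mega-counts in set 6. The ratio of Hba-x to both beta-like globins was 0.288 in Nipbl +/+; Isl1 +/+ replicate 3, the lowest of set 1, where the others ran from 0.349 to 0.371.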

How the results depend on the processing

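The count of 268 genes higher and 3 lower stayed within 1.5 times for the higher genes in most settings. It moved to 422 higher and 27 lower without the set term, and to 453 and 305 with the log2 share as a number over 37 libraries. Stricter or smaller groupings gave fewer: 0 and 0 with 6 against 6 libraries, 180 and 0 with 9 against 9, and 151 and 0 with the within-set grouping. Leaving out set 2 gave 167 and 1, leaving out set 5 155 and 0. Without the library labelled Nipbl +/- replicate 2 the counts were 482 and 60. Leaving out 1 library at a time gave 161 to 482 higher and 0 to 60 lower. The lower genes alone also moved to 23 in DESeq2, 10 with all 37 libraries in 3 groups, and 1 without a filter, with depth as a covariate or without set 1. The cause of these shifts was not tested.

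Numbers in the titles did not pair the libraries (median correlation of same-numbered libraries 0.046, lowest -0.49, and 3 of 37 libraries correlated best with their own number). With the replicate number as a block in place of set, 255 genes were higher and 1 lower. The small difference of Nipbl (0.022) took the other sign at -0.023 with total counts, -0.083 without the set term, -0.075 without genotype, -0.059 with 9 against 9, -0.12 with 6 against 6, -0.021 with the within-set grouping (-0.043 without Nipbl +/- replicate 2), -0.035 with 3 groups, -0.062 on the share, -0.0030 without Nipbl +/- replicate 2, -0.022 without set 1 and -0.040 without set 5. Leaving out 1 library gave -0.024 to 0.062. Isl1 took the other sign at 0.092 without the set term and 0.033 with the block. The fit without the 4 libraries that are alone in their set could not be made. The 10 named genes kept their direction in every setting that measured them. They lost the threshold with 6 against 6 libraries, where 0 genes passed in edgeR.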
